A study of Mus musculus with 24 samples.

Results

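The genes described here encode the invariant chains of the T cell receptor complex and the first signalling proteins behind it: Cd3d, Cd3e, Cd3g, Cd247, Cd4, Lck, Zap70, Lat and Lcp2. They were taken by name and make up 9 of the 20028 gene symbols on the array and 11 of its 55681 probes, with 2 probes each for Cd4 and Zap70 and 1 for every other gene. The study hybridised 24 two-colour arrays, each with RNA of mouse T helper cells in Cy3 and RNA of naive T cells in Cy5, to ask how gene expression in Th1 and Th2 cells responds to JQ1, an inhibitor of the BET bromodomain proteins, and to flavopiridol, an inhibitor of CDK9, the kinase of the elongation factor P-TEFb. Every group held 1 array, and the design text gives 1 biological replicate. The Th1 and Th2 cells were differentiated in culture from naive cells of female C57BL/6 mice, and were left unstimulated or reactivated. The naive reference on every array was CD4+CD62L+CD25-CD44lo cells of lymph nodes and spleens, also from female C57BL/6 mice. Th1 cells received DMSO for 6 or 24 hr, JQ1 at 50 nM or 500 nM for 6 hr, JQ1 at 500 nM for 24 hr, or flavopiridol at 1 µM or 10 µM for 6 hr. Th2 cells received DMSO, both JQ1 doses and both flavopiridol doses, the drugs for 6 hr. Of the Th2 DMSO arrays the title gives 24 and the source name 6 hr, which leaves their time unclear, and the agent used for reactivation and the number of animals are not given in the sources used here.

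The T cell receptor itself has no signalling domain of its own. It reaches the surface only with the CD3 delta, epsilon and gamma chains and the CD247 (zeta) chain, whose cytoplasmic motifs are phosphorylated by LCK, a membrane-anchored kinase that the co-receptor CD4 binds and brings to the receptor. ZAP70 then binds the phosphorylated chains and phosphorylates the scaffold LAT, which with LCP2 (SLP-76) assembles the complex that activates phospholipase C and Ras.

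In the RefSeq annotation (GRCm38.p6), Cd3g, Cd3d and Cd3e are consecutive genes on chromosome 9, while the other members lie on 5 other chromosomes and next to no other member. The RefSeq promoter table held 11 starts for 8 of the 9 members. Cd4 was not among them. The 250 bases before the start are printed for the 3 adjacent Cd3 genes, whose levels moved together on these arrays, and for both starts of Lck, which had the widest range of the 9 genes. The sequences run 5′ to 3′ on the gene's own strand, and capitals mark the letters of a searched motif.
Cd3g, chr9:44980432-44980681, minus strand: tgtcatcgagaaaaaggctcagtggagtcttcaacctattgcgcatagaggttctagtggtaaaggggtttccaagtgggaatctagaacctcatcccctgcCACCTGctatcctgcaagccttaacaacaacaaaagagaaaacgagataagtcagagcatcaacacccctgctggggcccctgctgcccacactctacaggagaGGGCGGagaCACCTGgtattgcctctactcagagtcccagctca
Cd3d, chr9:44981536-44981785, plus strand: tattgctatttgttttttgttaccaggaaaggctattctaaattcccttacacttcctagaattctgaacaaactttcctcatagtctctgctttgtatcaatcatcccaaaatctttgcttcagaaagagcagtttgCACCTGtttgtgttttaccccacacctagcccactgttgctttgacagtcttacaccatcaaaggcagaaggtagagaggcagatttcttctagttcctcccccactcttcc
Cd3e, chr9:45009612-45009861, minus strand: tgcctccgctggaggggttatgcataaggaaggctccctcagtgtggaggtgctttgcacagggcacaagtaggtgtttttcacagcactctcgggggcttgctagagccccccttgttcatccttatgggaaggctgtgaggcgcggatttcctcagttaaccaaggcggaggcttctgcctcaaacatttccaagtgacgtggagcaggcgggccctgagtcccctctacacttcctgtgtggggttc
Lck, start 1, chr4:129558373-129558622, minus strand: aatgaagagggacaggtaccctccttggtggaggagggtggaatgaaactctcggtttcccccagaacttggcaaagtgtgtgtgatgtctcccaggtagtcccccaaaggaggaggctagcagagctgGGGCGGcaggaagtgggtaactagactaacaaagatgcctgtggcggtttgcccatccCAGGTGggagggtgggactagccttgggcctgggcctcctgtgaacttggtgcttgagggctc
Lck, start 2, chr4:129573642-129573891, minus strand: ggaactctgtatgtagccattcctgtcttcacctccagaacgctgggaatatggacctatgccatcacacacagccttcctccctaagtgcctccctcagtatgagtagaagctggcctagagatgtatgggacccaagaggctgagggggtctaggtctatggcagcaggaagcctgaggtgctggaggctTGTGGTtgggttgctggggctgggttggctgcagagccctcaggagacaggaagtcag
The 5 motifs, searched on both strands, were the TATA box TATAAA, the GC box GGGCGG, the ETS letters CCGGAAG, the RUNX letters TGTGGT and the E box CAGGTG. The E box letters stood in 6 of the 11 windows of the members, against 17.2% of all 32851 windows in the table, and the pair in the Cd3g window lay 148 and 35 bases before the start. The GC box letters stood in 2 windows (Cd3g and Lck start 1) against 32.7% of all, and the RUNX letters in 2 (Lck start 2 and 1 of 3 Zap70 starts) against 14% of all. None of the 11 windows held the TATA or the ETS letters, which 12.4% and 6.91% of all windows held. Cd3e, Lat and Lcp2 had none of the 5 motifs. A match describes these letters only, and the arrays measured no binding to them.

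All 11 probes of the 9 genes were well above background in both channels on all 24 arrays, and none was saturated. Levels are given as log2 ratios of T helper to naive cells, so that 0 is the naive level, -1 is a 2-fold lower level and a ratio does not say which of 2 genes is the more abundant. The naive channel of a probe differed between 2 arrays by a median SD of 0.185 log2 units. The arrays lay on 3 slides. Each unstimulated and reactivated pair shared a slide, as did the JQ1 and DMSO arrays of Th1 cells at the same time, whereas no flavopiridol array shared a slide with its DMSO control. Between 48.8% and 52.0% of probes were above background in Cy3 with DMSO, 43.8% to 50.5% with 500 nM JQ1 and 35.5% to 41.5% with flavopiridol. The spike-in control probes had log2 ratios of -0.83 to -0.26 with DMSO, -0.42 to 0.90 with 500 nM JQ1 and -0.03 to 0.99 with flavopiridol. All 4 Th1 marker genes (Tbx21, Ifng, Cxcr3 and Il12rb2) were higher in Th1 cells. Of 5 Th2 marker genes Gata3, Il4, Il5 and Il13 were lower in Th1 cells and Il1rl1 was higher (1.33; limma, adjusted p = 0.032). The T cell genes Thy1, Cd2 and Cd5 were above background on all arrays. Of the myeloid genes Itgam and Csf1r were above background on all 24 arrays, Adgre1 on 6 and Lyz2 on none, and of the NK cell genes Ncr1 on 1 and Klrb1c on none. B cell genes were also measured. Cd79b was above background on 21 arrays, Ms4a1 on 20 and Cd79a on 14, and the mean log2 ratio of the 4 was 0.92 to 1.16 on Th1 DMSO arrays and 2.44 to 2.51 on Th2 DMSO arrays.

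**Figure D1:**
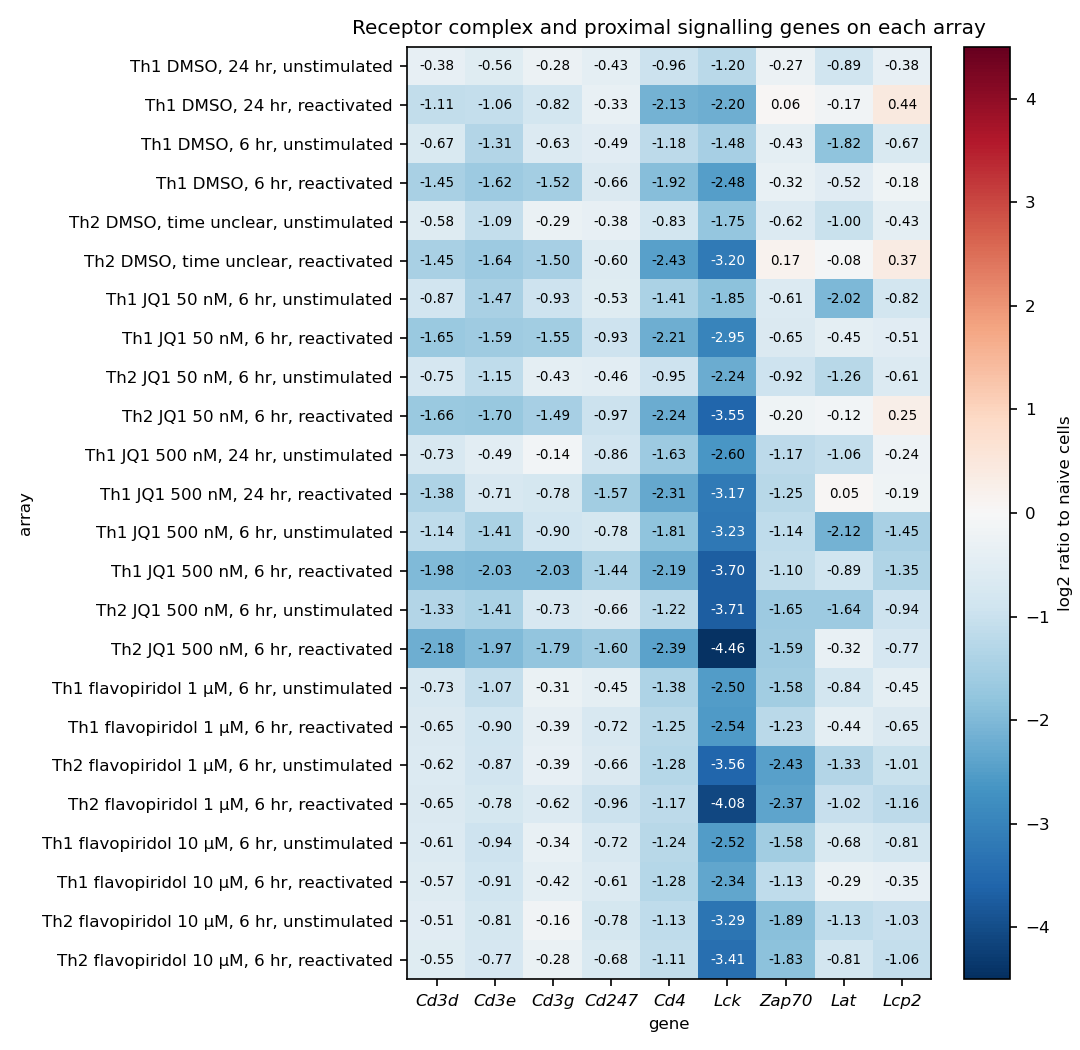
Log2 ratio to naive cells (colour and printed value) of each of the 9 genes (columns) on each of the 24 arrays (rows, grouped by treatment), 1 array per condition, with no error. Nearly all values lie below 0, Lck reaches -4.46, and the CD3 chains have their lowest values in reactivated cells with 500 nM JQ1.

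Most of these genes were lower in the effector cells than in naive cells. In unstimulated cells with DMSO, 8 of 9 genes were lower than in naive cells and none was higher, where 58.5% of all genes tested were called, 33.5% as higher and 25% as lower; the 9 genes had a median log2 ratio of -0.54 and all genes one of 0.07. In reactivated cells 6 of 9 were lower and none higher, where 72% of all genes were called, 39.2% as higher and 32.8% as lower, with medians of -1.28 and 0.08. Levels in a bulk RNA cannot separate fewer cells of a type from less RNA per cell.

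Lck, the kinase that phosphorylates the CD3 motifs, had the lowest mean in both states. Its log2 ratios were -1.48 (Th1, 6 hr), -1.20 (Th1, 24 hr) and -1.75 (Th2) unstimulated, and -2.48, -2.20 and -3.20 reactivated. All 6 values lay below 0, and the reactivated values lay below every unstimulated one. The mean was -1.48 ± 0.20 (SE, 3 arrays; limma with Benjamini-Hochberg adjustment, adjusted p = 0.000711) unstimulated and -2.63 ± 0.20 (limma, adjusted p = 2.49e-05) reactivated, or 2.79-fold and 6.17-fold below naive cells. Cd4 was 1.99-fold lower unstimulated (-0.99 ± 0.12, limma adjusted p = 0.000524) and 4.47-fold lower reactivated (-2.16 ± 0.12, limma adjusted p = 8.3e-06).

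Of the CD3 chains, Cd3e was lower in both states (-0.99 unstimulated and -1.44 reactivated), as was Cd3d (-0.54 and -1.34). Cd3g, the gamma chain, was called lower in reactivated cells (-1.28; limma, adjusted p = 0.000256), while its value in unstimulated cells was -0.40 ± 0.16 (limma, adjusted p = 0.0625). Cd247 was modestly lower in both states (-0.44 and -0.53). With arrays shifted to their spike-in RNAs Cd247 read -0.12 and 0.07 and was not called (limma, adjusted p = 0.449 and 0.640). Lat, the membrane scaffold, was 2.35-fold lower in unstimulated cells (-1.23 ± 0.19, limma adjusted p = 0.00139), but at -0.25 ± 0.19 was not called in reactivated cells (limma, adjusted p = 0.262). Lcp2 (-0.50) and Zap70 (-0.44) were lower in unstimulated cells, and their values in reactivated cells were 0.21 (limma, adjusted p = 0.214) and -0.03 (limma, adjusted p = 0.852).

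These tests leave out the spread of the naive RNA, and the dyes were not swapped, so a dye bias cannot be told apart from a difference to naive cells. With the array shifted to its spike-in RNAs, 4 of 9 genes were lower and none higher in unstimulated cells, where 59.2% of all genes were called (11% as lower and 48.2% as higher). In reactivated cells 5 were then lower and 2 higher, Zap70 (0.57) and Lcp2 (0.81), where 78.1% of all genes were called (14.7% as lower and 63.5% as higher). Of the B cell genes 3 rose against naive cells in unstimulated cells (Cd79b by 1.60 and Ms4a1 by 2.39 among them) and 2 in reactivated cells (Ms4a1 by 2.43 among them), on summed Cy3 signals of 1063 to 1407 in Th1 and 3514 to 4732 in Th2 DMSO arrays. The myeloid gene Itgam was lower than in naive cells in both states and Csf1r in reactivated cells. Of the T cell genes Cd2 (-0.58) and Cd5 (-0.97) were lower in unstimulated cells and Cd5 (-1.38) in reactivated cells, and the regulatory T cell gene Foxp3, above background on 17 of 24 arrays, was lower in both (-0.55 and -0.60). The part of these genes in the levels of the members was not tested.

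Reactivation changed 7 of the 9 genes in cells with DMSO. Cd4, Lck, Cd3g, Cd3d and Cd3e fell, and Lat and Lcp2 rose; 50.9% of all genes tested were called, 29% as lower and 21.9% as higher. The median of the 9 genes was -0.45 and that of all genes -0.05. The comparison rests on 3 pairs of arrays, Th1 at 6 hr, Th1 at 24 hr and Th2, each on 1 slide, with the spread between pairs as its error.

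Cd4, the co-receptor, read -1.18, -0.96 and -0.83 on the unstimulated and -1.92, -2.13 and -2.43 on the reactivated arrays of Th1 at 6 hr, Th1 at 24 hr and Th2. The states did not overlap, and the Th2 pair differed most. The mean fall was 2.25-fold (-1.17 ± 0.18; limma with Benjamini-Hochberg adjustment, adjusted p = 0.00282). Lck fell 2.21-fold (-1.15 ± 0.15; limma, adjusted p = 0.0013), by 1.44 log2 units in the Th2 pair and by 0.996 and 0.998 in the Th1 pairs at 6 and 24 hr.

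Cd3g fell from -0.63, -0.28 and -0.29 to -1.52, -0.82 and -1.50, again without overlap (-0.88 ± 0.16; limma, adjusted p = 0.00499). Cd3d fell from -0.67, -0.38 and -0.58 to -1.45, -1.11 and -1.45 (-0.80 ± 0.12; limma, adjusted p = 0.00247) and was lowered to a like degree in the 3 pairs, by 0.73 to 0.87. Cd3e had the smallest called fall. Its ratios went from -1.31, -0.56 and -1.09 to -1.62, -1.06 and -1.64 (-0.45 ± 0.13; limma, adjusted p = 0.0241), so that the 2 states overlapped across pairs although the value fell within each. Without the Th1 24 hr pair or without the Th2 pair this call was lost (limma, adjusted p = 0.12 and 0.0718), as it was with the spike-in shift (-0.17; limma, adjusted p = 0.411). Cd247, the fourth signalling chain, differed by -0.16, 0.11 and -0.21 and was not called (-0.09 ± 0.13; limma, adjusted p = 0.607).

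Lat moved the other way. It went from -1.82, -0.89 and -0.997 to -0.52, -0.17 and -0.08, a rise of 1.97-fold (0.98 ± 0.15; limma, adjusted p = 0.00277), and the states did not overlap. Lcp2, its partner adaptor, went from -0.67, -0.38 and -0.43 to -0.18, 0.44 and 0.37 (0.70 ± 0.13; limma, adjusted p = 0.00569), also without overlap. Zap70 differed by 0.11, 0.33 and 0.79, which was not called (0.41 ± 0.16; limma, adjusted p = 0.0802), but was called higher with the spike-in shift (0.70; limma, adjusted p = 0.0188). In the same comparison Il2 rose by 6.24, Egr2 by 4.72 and Nr4a1 by 3.86 log2 units, while Cd69 had a value of 1.52 and did not pass the test. Of the B cell genes Cd79b fell by 1.18 and 1 other gene rose, and their part in the result was not tested.

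**Figure D2:**
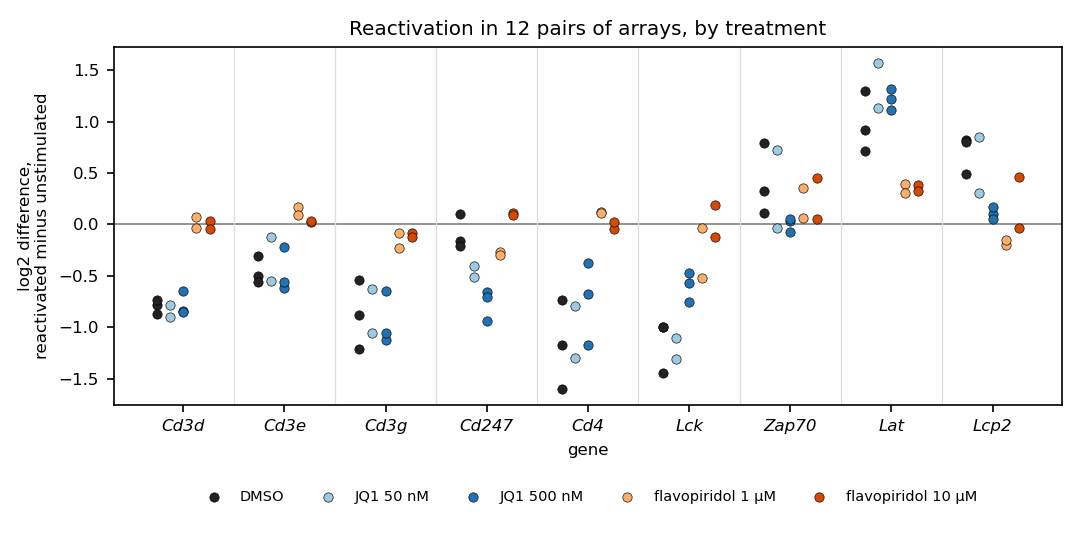
Log2 difference, reactivated minus unstimulated, of each gene (horizontal axis) in 12 pairs of arrays, 1 point per pair, coloured by treatment. The CD3 chains, Cd4 and Lck fall in every pair with DMSO or JQ1 and lie between -0.52 and 0.19 with flavopiridol, while Lat is above 0 in all 12 pairs, or in 11 of them on the spike-in scale.

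The wider pathway moved in both directions on reactivation. Of the receptor chains and accessory surface proteins 9 of 12 were on the array, of which 1 rose (Cd6, by 0.61) and 2 fell (Trat1, which stabilises surface receptor, at -1.35, and the co-stimulatory receptor Cd28 at -1.09). The receptor chain gene Trac was not among the 9. Of 8 kinases 3 rose and 4 fell, with the Src family kinase Fyn at 1.36 and Tec at 1.32, and the Tec family kinase Txk at -1.43 and the MAP kinase Mapk3 at -1.64. Of 18 tested adaptors and effectors 3 rose and 9 fell, with Tespa1 at 0.92, Malt1 at 0.77 and Fyb at -2.21. Of 16 tested inhibitors 3 rose and 9 fell: the phosphatase Ubash3b rose by 3.49 and Sla by 2.16, and Sla2 (-3.12) and Sit1 (-2.79) had the lowest values.

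JQ1 at 500 nM lowered all 9 genes. They were 9 of 9 called as lower, where 47.6% of all genes were called, 29.9% as lower and 17.7% as higher, and their median was -0.59 against -0.07 for all genes. With each array shifted to its spike-in RNAs the median of all genes was -0.64, and 9 of 9 were called as lower, where 38.9% of all genes were called, 38.2% as lower and 0.682% as higher. Every member had the same SE (0.32) in that fit. The shift of an array is common to all its genes, so these 9 calls are not independent of each other. The test used the DMSO, 50 nM and 500 nM arrays in 4 contexts (Th1 and Th2, unstimulated and reactivated), with the context as a block. The JQ1 arrays were at 6 hr. The Th2 DMSO arrays have an unclear time and lay on another slide than the Th2 JQ1 arrays. In unstimulated Th1 DMSO cells all 9 genes were higher at 24 hr than at 6 hr, by 0.06 to 0.93. The part of time and slide in the result was not tested. Without the context as a replicate block 1 of 9 (Zap70) was called, at the same fitted differences. The share of all genes called without the block is not given here.

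Lck fell most, by 2.93-fold (-1.55 ± 0.13; limma with Benjamini-Hochberg adjustment, adjusted p = 9.23e-06). Its log2 ratio went from -1.48 with DMSO to -1.85 with 50 nM and -3.23 with 500 nM in unstimulated Th1 cells, and from -2.48 to -2.95 and -3.70 in reactivated Th1 cells. In unstimulated Th2 cells it went from -1.75 to -2.24 and -3.71, and in reactivated Th2 cells from -3.20 to -3.55 and -4.46, the lowest value of any member on any array. The order DMSO, 50 nM, 500 nM was thus the same in all 4 contexts.

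Zap70 fell 2.11-fold (-1.07 ± 0.16; limma, adjusted p = 0.000298), with single-context differences of -0.71 and -0.79 in Th1 and -1.03 and -1.77 in Th2 cells, unstimulated and reactivated. Lcp2 fell 1.86-fold (-0.90 ± 0.11; limma, adjusted p = 0.00013), by 0.78 and 1.17 in Th1 and 0.51 and 1.13 in Th2 cells. Lat fell least of the signalling proteins (-0.39 ± 0.09; limma, adjusted p = 0.00409).

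Among the receptor chains Cd3d fell by 0.62 ± 0.08 (limma, adjusted p = 0.000123) and Cd247 by 0.59 ± 0.12 (limma, adjusted p = 0.0021). The differences of Cd247 were -0.28 and -0.27 in unstimulated and -0.78 and -1.01 in reactivated cells of Th1 and Th2. Cd3g (-0.38 ± 0.09; limma, adjusted p = 0.0049), Cd4 (-0.31 ± 0.11; limma, adjusted p = 0.0321) and Cd3e (-0.29 ± 0.08; limma, adjusted p = 0.0161) changed by less. Leaving out 1 of 4 contexts left 7 or 8 genes called, and the lost calls were those of Cd3e and Cd4, each lost in 3 of the 4 cases (limma, adjusted p = 0.0656 to 0.0789 for Cd3e and 0.0616 to 0.178 for Cd4), with values of -0.36 to -0.25 for Cd3e and -0.43 to -0.21 for Cd4 over the 4 cases. With the dimmer probe of Cd4 the value was -0.07 and not called (limma, adjusted p = 0.502).

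**Figure D3:**
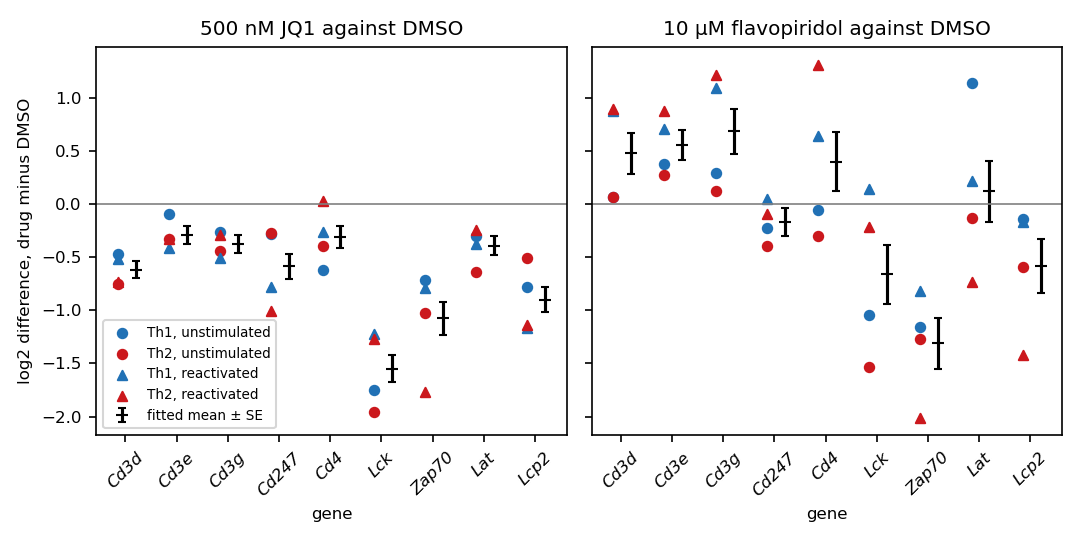
Log2 difference from DMSO of each gene (horizontal axis) with 500 nM JQ1 (left) and 10 µM flavopiridol (right). The drugs were given for 6 hr, and the Th2 DMSO arrays have an unclear time. Points are the 4 contexts, 1 pair of arrays each, and black marks are the fitted mean ± SE. With JQ1 all 9 means lie below 0 and Lck is lowest at -1.55; with flavopiridol Zap70 is lowest at -1.31 and Cd3g highest at 0.68, which becomes -0.44 when arrays are shifted to their spike-in RNAs.

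In Th1 cells alone, where drug and control shared a slide and no Th2 array of unclear time entered, 4 of 9 genes were called lower and none higher, where 23.6% of all genes were called (15.1% as lower and 8.5% as higher). The 4 were Lck (-1.49), Lcp2 (-0.97), Zap70 (-0.75) and Cd3d (-0.49). At 50 nM no member was called with limma, where 0.341% of all genes were (0.256% as higher and 0.0852% as lower), and 2 of 9 had an unadjusted p below 0.05 against 13.2% of all genes. All 9 values at 50 nM were below 0, from -0.42 (Lck) to -0.06 (Cd3e). In Th1 cells held for 24 hr with 500 nM JQ1, with 1 pair of arrays per state and no test, Lck differed by -1.40 unstimulated and -0.97 reactivated, Zap70 by -0.91 and -1.31, and Cd247 by -0.43 and -1.24. Cd3e (0.07 and 0.35) and Cd3g (0.14 and 0.04) were above DMSO at 24 hr. The spike-in log ratios of these arrays were 0.20 with JQ1 and -0.29 with DMSO unstimulated, and -0.19 and -0.42 reactivated. The 24 hr differences are given without the spike-in shift.

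Other T cell genes fell as well. All 3 T cell markers on the array (Thy1, Cd2 and Cd5) were lower with 500 nM JQ1, and so were 3 of 4 B cell genes (Cd79b at -0.78 and Ms4a1 at -1.29 among them), and the summed Cy3 signal of the 4 was 547 to 639 in Th1 and 2105 to 2298 in Th2 cells. The myeloid gene Csf1r was higher (0.47). Their part in the result was not tested. Of the 9 receptor chains and accessory surface proteins on the array, Cd2 and Cd5 again among them, 8 fell and none rose, with Cd5 at -1.67 and Cd6 at -1.53. Of 8 kinases 5 fell and 2 rose, with Prkcq at -1.40, Map4k1 at -1.25 and Tec at 0.40. Of 19 adaptors and effectors 7 fell and 2 rose, with Sh2d2a at -1.17, Grap at -1.15, Shb at 1.85 and Nck2 at 0.58. Of 17 inhibitors 9 fell and 1 rose, with Sla at -1.82, the phosphatase Ptpn6 at -1.41 and the Csk-binding protein Pag1 at 0.37.

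With 10 µM flavopiridol Zap70 fell, and Cd3g and Cd3e rose relative to the bulk of genes, turning to -0.44 and -0.57 when arrays were shifted to their spike-in RNAs. The other 6 did not pass the test. Thus 3 of 9 were called, where 48.9% of all genes were, 33.5% as lower and 15.4% as higher. The median of the 9 genes was 0.12 and that of all genes -0.22.

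Zap70 fell 2.48-fold (-1.31 ± 0.24; limma with Benjamini-Hochberg adjustment, adjusted p = 0.00237). In unstimulated Th1 cells its log2 ratio was -0.43 with DMSO, -1.58 with 1 µM and -1.58 with 10 µM, and in reactivated Th1 cells -0.32, -1.23 and -1.13. In unstimulated Th2 cells it was -0.62, -2.43 and -1.89, and in reactivated Th2 cells 0.17, -2.37 and -1.83. Every flavopiridol array thus lay below every DMSO array, and the lower dose gave a similar value in Th1 and a lower one in Th2 cells. The dimmer Zap70 probe gave -0.99 (limma, adjusted p = 0.00829).

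Cd3g differed from DMSO by 0.30 and 0.13 in unstimulated and by 1.09 and 1.22 in reactivated Th1 and Th2 cells (0.68 ± 0.22; limma, adjusted p = 0.0277; -0.44 after the spike-in shift). Cd3e differed by 0.38, 0.28, 0.71 and 0.87 in the same order (0.56 ± 0.14; limma, adjusted p = 0.0112; -0.57 after the spike-in shift). Cd3d (0.48 ± 0.19; limma, adjusted p = 0.0655) and Cd4 (0.40 ± 0.28; limma, adjusted p = 0.258) had values of the same sign and did not pass the test. After the spike-in shift Cd3d was at -0.65 and not called (limma, adjusted p = 0.0503), while Cd4 was at -0.73 and called lower (limma, adjusted p = 0.0402). Lck had differences of -1.04 and -1.53 in unstimulated and 0.14 and -0.21 in reactivated cells (-0.66 ± 0.28; limma, adjusted p = 0.0783). Lcp2 was at -0.58 ± 0.25 (limma, adjusted p = 0.0872), Cd247 at -0.17 ± 0.13 (limma, adjusted p = 0.315) and Lat at 0.12 ± 0.29 (limma, adjusted p = 0.746). The differences of Lat ran from -0.73 in reactivated Th2 to 1.14 in unstimulated Th1 cells.

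The scale of the arrays set the sign of most of these values. After the spike-in shift the median of all genes was -1.35, the 9 genes ran from -2.44 (Zap70) to -0.44 (Cd3g), 5 were called lower and none higher, where 80.4% of all genes were called, 79.6% as lower and 0.877% as higher. Without the Th1 reactivated pair neither Cd3e (limma, adjusted p = 0.0708) nor Cd3g (limma, adjusted p = 0.123) was called, and Cd3g was not called without the Th1 unstimulated (limma, adjusted p = 0.0505) or the Th2 reactivated pair (limma, adjusted p = 0.129) either. With the scanner software's log ratios none of the 9 was called higher and 2 were called lower (Zap70 and Lck). In Th1 cells alone Zap70 was the 1 gene called (-0.99), where 37.1% of all genes were (25.1% as lower and 12% as higher), and it was also the 1 gene called with the slide as a random block and in the fit of the 8 DMSO and 10 µM arrays. At 1 µM 3 of 9 genes were called, where 51.7% of all genes were (16.2% as higher and 35.4% as lower): Zap70 (-1.60), Lck (-0.94) and Cd3e (0.51).

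The other Cd4 probe, with a mean log2 signal of 8.09 against 13.5 on the arrays without flavopiridol, behaved differently. Its log2 ratio was -1.74 to -1.03 on the 16 arrays without flavopiridol and -0.43 to -0.19 on the 8 arrays with it, without overlap, and the 10 µM value was 1.09 (limma, adjusted p = 0.000476). That value is without the spike-in shift, which took the 10 µM value of the brighter probe from 0.40 to -0.73. The brighter probe read -2.43 to -0.83 and -1.38 to -1.11 on the same arrays. Which of the pair follows the Cd4 transcript was not tested, and results for Cd4 are given for the brighter probe unless stated.

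**Figure D4:**
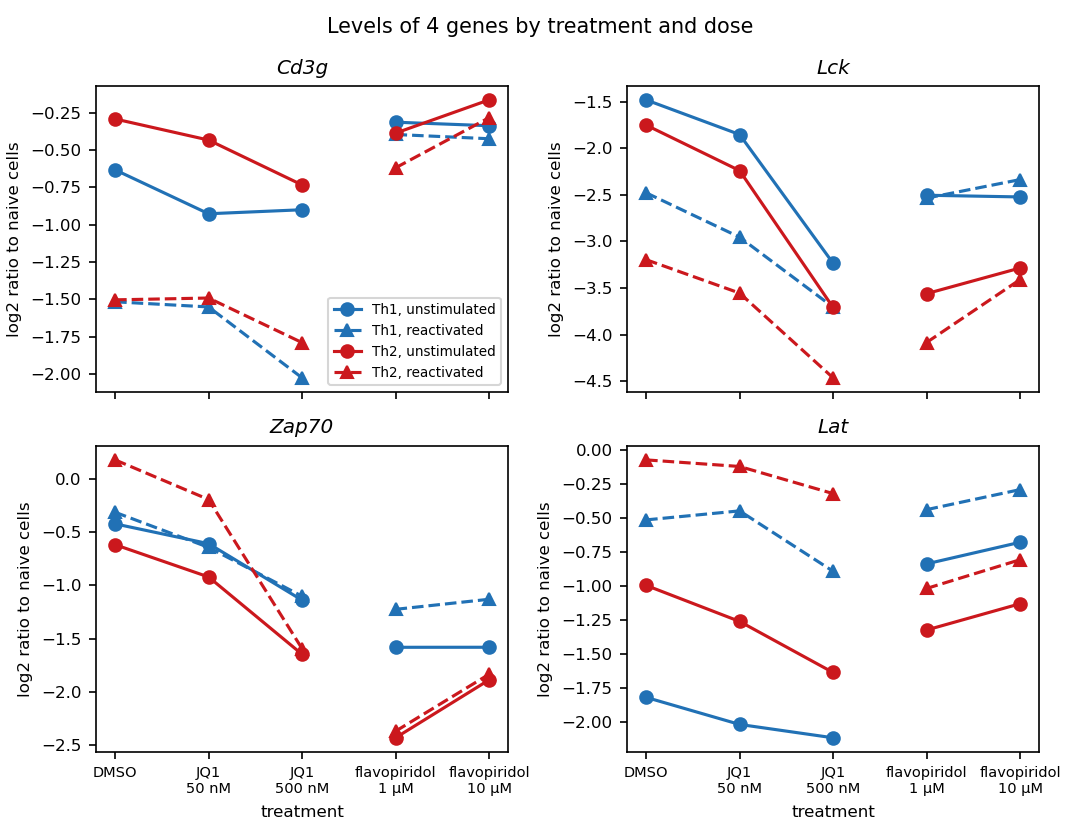
Log2 ratio to naive cells of Cd3g, Lck, Zap70 and Lat (1 panel each) against treatment at 6 hr (the Th2 DMSO arrays have an unclear time); lines join the arrays of 1 context, 1 array per point and no error. Lck falls with each JQ1 dose in all 4 contexts, Zap70 is below DMSO on every flavopiridol array, and with flavopiridol the Cd3g values of unstimulated and reactivated cells lie within 0.23 of each other.

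Of the 9 receptor chains and accessory surface proteins on the array, 10 µM flavopiridol lowered 5 and raised 2, with Cd28 at -1.56 and Cd5 at -1.51, and Trat1 at 2.19 and Cd8b1 at 1.11. Of 8 kinases 2 fell and 1 rose (Mapk3 at 2.00). Of 18 adaptors and effectors 7 fell and 3 rose, with Bcl10 at -2.88, Malt1 at -2.07, Was at 1.30 and Skap1 at 1.02. Of 16 inhibitors 6 fell and 1 rose, with Sla at -3.13, Ptpn22 at -2.92 and Lax1 at 0.48. Of the 4 B cell genes 3 also fell (Cd79b at -1.60 and Ms4a1 at -1.74 among them), with a summed Cy3 signal over the 4 of 465 to 469 in Th1 and 1399 to 1403 in Th2 cells. The myeloid genes Itgam (-2.21) and Csf1r (2.02) changed in opposite directions, on a summed Cy3 signal over the 4 myeloid genes of 4609 to 4751 in Th1 and 7741 to 8592 in Th2 cells. Of the T cell genes Thy1 (0.86) rose and Cd2 (-0.96) and Cd5 fell, and the regulatory T cell gene Foxp3 rose (1.06), on a Cy3 signal of 129.9 to 167 in Th1 and 173 to 189 in Th2 cells against 81.6 to 105 and 82.1 to 83.7 with DMSO. The part of these genes in the result was not tested. All values of this paragraph are without the spike-in shift, under which 0.877% of all genes were called higher and 79.6% lower.

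The drugs were compared directly on the 16 drug arrays at 6 hr, without the DMSO arrays. In every context the arrays of the 2 drugs lay on different slides, so drug and slide cannot be told apart. With 10 µM flavopiridol 6 of 9 genes were higher than with 500 nM JQ1 and none was lower, where 56.2% of all genes were called, 22.4% as higher and 33.8% as lower. The 6 were Cd3d (1.096 ± 0.20; limma with Benjamini-Hochberg adjustment, adjusted p = 0.000533), Cd3g (1.06), Lck (0.89), Cd3e (0.85), Cd4 (0.71) and Cd247 (0.42; limma, adjusted p = 0.043). Lat (0.51), Lcp2 (0.32) and Zap70 (-0.24) did not pass the test. The direction of Cd247 turned with median centring of the arrays (-0.57) and with the spike-in shift (-0.14), and after that shift no member was called, with Cd3d at 0.54. The doses differ between the drugs, and these are differences between 2 treatments as given.

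The difference between reactivated and unstimulated cells was itself compared between flavopiridol and DMSO. In the 8 pairs with DMSO or JQ1, reactivated cells were lower by 0.65 to 0.90 log2 units for Cd3d, 0.55 to 1.21 for Cd3g, 0.38 to 1.60 for Cd4 and 0.12 to 0.62 for Cd3e, in 8 of 8 pairs each. On the spike-in scale this was 7 of 8 for Cd3e and 8 of 8 for the others. In the 4 pairs with flavopiridol the differences were -0.04 to 0.08 for Cd3d, -0.23 to -0.08 for Cd3g, -0.04 to 0.12 for Cd4 and 0.03 to 0.17 for Cd3e. The interaction of 10 µM flavopiridol with reactivation was called for Cd4 (1.16 ± 0.28; limma with Benjamini-Hochberg adjustment, adjusted p = 0.0342), Cd3g (0.94 ± 0.24; limma, adjusted p = 0.0397) and Cd3d (0.82 ± 0.19; limma, adjusted p = 0.0304), where 15.8% of all genes were called, 8.9% with a positive and 6.93% with a negative value. Lck had the largest value, 1.25 ± 0.36, and did not pass the test (limma, adjusted p = 0.0554). Lat was higher after reactivation in 12 of 12 pairs (11 of 12 on the spike-in scale), by 0.72 to 1.57 without and 0.31 to 0.40 with flavopiridol, and its interaction (-0.76 ± 0.53) was not called (limma, adjusted p = 0.388).

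The 3 calls were lost with a context left out (0 or 1 called), with median centring, with the spike-in shift and with the scanner software's log ratios (0 called under each). Their values under these 3 scalings were 0.96 to 1.28 for Cd4, 0.75 to 1.07 for Cd3g and 0.63 to 0.89 for Cd3d, with the SE up to 0.54, 0.62 and 0.57. With the dimmer probes of Cd4 and Zap70, 2 genes were called instead of 3. The fit had 12 arrays and 4 residual degrees of freedom. On the same arrays Il2 and Egr2, which mark reactivation, had interactions of -6.60 and -3.91 and were called, and their part in the result was not tested.

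For JQ1 the interaction with reactivation was called for 2 genes, where 10.1% of all genes were called (4.5% with a positive and 5.62% with a negative value). Lck fell by 1.75 and 1.95 in unstimulated and by 1.23 and 1.27 in reactivated Th1 and Th2 cells, an interaction of 0.61 ± 0.14 (limma, adjusted p = 0.0281) that turned to -0.59 with the spike-in shift. Cd247 showed the opposite, with an interaction of -0.61 ± 0.14 (limma, adjusted p = 0.0251). Neither call was made when a context was left out, whichever it was, nor with the scanner software's log ratios, the deposited table or Cy3 alone. With median centring only Cd247 was called (-0.78, limma adjusted p = 0.0493). With the spike-in shift Cd247 was at -1.81 and called (limma, adjusted p = 0.000376), where the median of all genes was -1.21. The spike-in log ratio of the reactivated Th1 array with 500 nM JQ1 was 0.90, against -0.42 on its unstimulated partner.

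The effect of each drug was also compared between Th1 and Th2 cells. With limma 0 of 9 were called for 10 µM flavopiridol and 0 of 9 for 500 nM JQ1, where 0.0161% and 0% of all genes were, and at an unadjusted p below 0.05 it was 1 of 9 for each, against 12.9% and 7.03% of all genes. Lat had the largest value for flavopiridol (1.11 ± 0.40; limma, adjusted p = 0.332), which was called with the spike-in shift (2.02; limma, adjusted p = 0.0450), and Zap70 for JQ1 (0.65 ± 0.25; limma, adjusted p = 0.656). In simulated data the flavopiridol fit recovered 3% of 2-fold and 47% of 4-fold differences on 12432 genes.

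Th1 and Th2 cells differed in Lck. Over 10 pairs of arrays matched for treatment and state, Lck was higher in Th1 cells in 10 of 10, by 0.27 to 1.55 log2 units, with a mean of 0.76 ± 0.11 (1.70-fold; limma with Benjamini-Hochberg adjustment, adjusted p = 0.000295). It was the 1 called gene of 9, where 35.6% of all genes were called, 17% as higher and 18.5% as lower. On the spike-in scale it was higher in 9 of 10 pairs and still called (0.99). Without the pairs as a replicate block the same difference was not called (0.76; limma, adjusted p = 0.197), which left 0 of 9. Of the pairs only the DMSO pairs lay on 1 slide, and there the values were 0.27 unstimulated and 0.72 reactivated. Without the DMSO pairs, whose Th2 time is unclear, Lck and Zap70 were called higher in Th1 cells. The share of all genes called without these pairs is not given here.

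Lat and Lcp2 divided by drug. In the 6 pairs without flavopiridol both were lower in Th1 cells in 6 of 6, Lat by 0.33 to 0.82 and Lcp2 by 0.21 to 0.76, and on the spike-in scale in 6 and 5 of 6. In the 4 pairs with flavopiridol both were higher in Th1 cells in 4 of 4, Lat by 0.45 to 0.58 and Lcp2 by 0.22 to 0.70. Cd247, Lck and Zap70 were also higher in Th1 cells in 4 of 4 of these pairs. On the spike-in scale every member was higher in 4 of 4, Cd3d by 0.48 to 0.85 and Lat by 1.03 to 1.42. Over all 10 pairs Lat (-0.14, limma adjusted p = 0.531) and Lcp2 (-0.09, limma adjusted p = 0.684) were not called. Without the 4 flavopiridol pairs both were called lower in Th1 cells (Lat -0.57, limma adjusted p = 0.00164, and Lcp2 -0.48, limma adjusted p = 0.00464). The share of all genes called in that smaller fit is not given here. The interaction of 10 µM flavopiridol with cell type was not called for either (limma, adjusted p = 0.332 for Lat and 0.461 for Lcp2), apart from the call of Lat with the spike-in shift. Zap70 was at 0.36 ± 0.15 (limma, adjusted p = 0.0761). The CD3 chains, Cd247 and Cd4 had means between -0.13 and 0.04 and were not called.

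**Figure D5:**
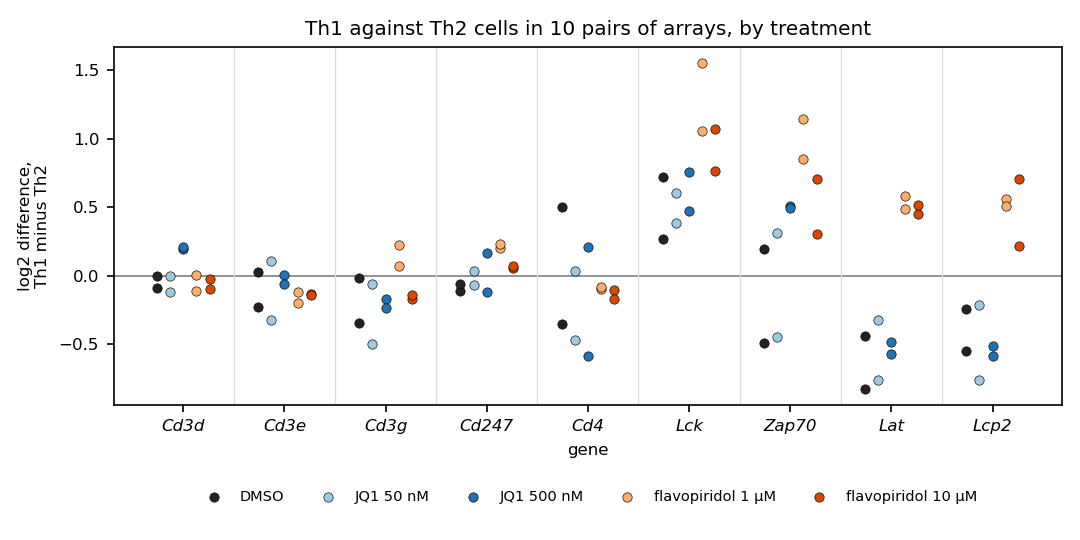
Log2 difference, Th1 minus Th2, of each gene (horizontal axis) in 10 pairs of arrays matched for treatment and state, 1 point per pair, coloured by treatment. Lck lies above 0 in 10 of 10 pairs (9 of 10 on the spike-in scale), and Lat and Lcp2 lie below 0 in the 6 pairs without flavopiridol and above 0 in the 4 pairs with it.

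The 4 B cell genes were all lower in Th1 cells, by 0.38 (Cd79a) to 2.24 (Ms4a1), while both CD8 T cell genes were higher (Cd8a by 1.35 and Cd8b1 by 0.35), on a summed Cy3 signal of 266 to 465 on Th1 and 174 to 237 on Th2 DMSO arrays. The myeloid genes Itgam (-0.39) and Csf1r (-0.32) were lower in Th1 cells, and of the T cell genes Cd2 (0.61) and Cd5 (0.69) were higher and Thy1 (0.28) was not called. Their part in the result for Lck was not tested. In the wider pathway 7 of 9 receptor chains and accessory surface proteins were higher in Th1 cells and 2 lower, with Cd8a at 1.35, Cd28 at 1.28, Trat1 at -1.10 and Cd27 at -0.50. Of 8 kinases 1 was higher (Txk at 0.78) and 4 lower, with Mapk3 at -0.40 and Prkcq at -0.37. Of 19 adaptors and effectors 2 were higher (Themis at 0.69 and Grap2 at 0.62) and 6 lower, with Tespa1 at -0.86 and Rasgrp1 at -0.69. Of 17 inhibitors 3 were higher and 3 lower, with Ptpn22 at 0.50, Dok1 at 0.44, Dgka at -0.66 and Sit1 at -0.47.

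Over the 24 arrays Cd3g and each of the other CD3 genes formed the most similar pairs of members. Pearson's r was 0.93 for Cd3d and Cd3g, 0.90 for Cd3e and Cd3g and 0.83 for Cd3d and Cd3e, and 0.91, 0.88 and 0.77 on the 16 arrays without flavopiridol. On those 16 arrays Cd3d and Lck also reached 0.89, against 0.55 over all 24. Cd4, on chromosome 6, reached 0.87 with Cd3d. The 36 pairs of members ranged from -0.52 to 0.93 with a median of 0.32. These values share 1 naive reference, the slides and the treatments, and are given as a description. Of 11815 genes above background on at least 12 arrays, the profiles most like Cd3d were those of Acap1 (r = 0.96) and Med12 (0.96), like Cd3e those of Msn (0.91) and Cd3g, and like Cd3g those of Cd3d and Os9 (0.93). Lck was most like Il10rb and Fbxo4 (0.95 each), Cd4 most like Fam189b (0.98) and Senp7 (0.97), and Zap70 most like Nup37 and Mrpl53 (0.94 each). Lat was most like Wdr46 (0.93) and Nol6 (0.91), Cd247 most like Kmt5a and Fbf1 (0.88 each), and Lcp2 most like Cwf19l1 (0.85) and Exosc10 (0.84).

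Longer culture was measured in Th1 cells only, with 1 array per condition on other slides than the 6 hr arrays, so time and slide cannot be told apart. At 24 hr all 9 genes were higher than at 6 hr in unstimulated DMSO cells, from 0.06 (Cd247) to 0.93 (Lat) log2 units. In reactivated DMSO cells 8 of 9 were, with Cd4 at -0.20. With 500 nM JQ1 the 24 hr values of Cd3e exceeded those at 6 hr by 0.92 unstimulated and 1.32 reactivated and those of Lcp2 by 1.21 and 1.16, whereas Cd247 (-0.09 and -0.13) and Zap70 (-0.03 and -0.15) lay slightly below. The spike-in log ratios of these arrays were -0.42 unstimulated and 0.90 reactivated at 6 hr, and 0.20 and -0.19 at 24 hr. The differences between times are given without the spike-in shift.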

How the data were processed

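RNA of 24 samples was hybridised by the authors against naive RNA on Agilent two-colour arrays and read with Agilent Feature Extraction 10.7.1.1. Per the file headers, the deposited scanner files hold spot and background intensity for each channel and log10 ratios of red over green. The deposited log2 value table, made by the authors, holds green over red near a median of 0 per array, and Lat's probe was not matched in it. Here median spot intensities were background-corrected (normexp, offset 50), normalised by loess within arrays and expressed as log2 Cy3/Cy5 with limma 3.58.1 in R 4.3.3. Control spots had no weight. A gene was represented by its brightest probe and tested if its Cy3 signal passed the scanner's background flag on 3 or more arrays of the fit. Tests were linear models with empirical Bayes moderation and Benjamini-Hochberg adjustment over all genes tested, called below 0.05. Contexts or pairs stood in for replicates and were blocks, so p-values measure the spread between them. The models were tested on simulated data. Members and gene lists were chosen with earlier results of these data known. All members are named, with the 2 highest and 2 lowest called genes per list and the 2 most similar profiles per member, and a few list genes are not reported here. Alternatives were array scaling, scanner software ratios, the deposited table, probe choice, no filter, Cy3 alone, slide, block and samples left out. Precision is limited by the number of arrays.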

Additional observations from a re-analysis of the deposited data

Results flagged for a closer look

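For 5 genes the effect of a drug differed between reactivated and unstimulated cells in the test of the difference itself (limma interaction with Benjamini-Hochberg adjustment over all genes). With 10 µM flavopiridol the effect was more positive in reactivated cells for Cd4 (1.16 log2 units), Cd3g (0.94) and Cd3d (0.82), where 15.8% of all genes were called, and none of the 9 was called with median centring, the spike-in shift or the scanner software's log ratios. With 500 nM JQ1 it was more positive in reactivated cells for Lck (0.61, turning to -0.59 with the spike-in shift) and more negative for Cd247 (-0.61), where 10.1% of all genes were called. Neither was called with the scanner software's log ratios, the deposited table or Cy3 alone, and with median centring only Cd247 was. With each context left out in turn, 0 or 1 of the flavopiridol interactions and 0 of the JQ1 interactions were called. With the dimmer probes of Cd4 and Zap70, 2 flavopiridol interactions were called.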

How the results depend on the processing

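The counts of called members kept within 1.5 times the reported count under 109 of 140 alternatives. These totals ignore direction and which genes were called, and 0 against 0 counts as kept. For 10 µM flavopiridol (2 higher, 1 lower) median centring and Cy3 alone each gave 1 higher and 3 lower, and scanner software ratios 0 higher and 2 lower. The share of all genes called is given above for some of the alternatives only. The count for 10 µM flavopiridol (3 called) was 5 with the spike-in shift, 5 with the deposited table (2 higher, 3 lower), and 1 each in Th1 cells alone, with 8 arrays (DMSO and the higher dose) and with the slide as a random block. For 500 nM JQ1 (9) it was 4 in Th1 cells alone and 0 at the lower dose. For flavopiridol against JQ1 (6) it was 0 with the spike-in shift. For flavopiridol by reactivation (3) it was 0 with median centring, 0 with the spike-in shift and 0 with scanner software ratios. For JQ1 by reactivation (2) it was 1 with median centring, and 0 with scanner software ratios, 0 with the deposited table and 0 with Cy3 alone. With the spike-in shift it was 7, all negative, where the median of all genes was -1.21 and every member had an SE of 0.43. For flavopiridol by cell type (0) it was 1 with the spike-in shift (Lat). For Th1 against Th2 (1) it was 2 without the DMSO pairs and 3 without the flavopiridol pairs. For unstimulated against naive cells (8) it was 4 with the spike-in shift and 5 with scanner software ratios. The choices of Th1 cells alone and of the dimmer probes of Cd4 and Zap70 were made after seeing the data. Without the context as a replicate block, 500 nM JQ1 called 1 of 9 (Zap70) and Th1 against Th2 called 0. Leaving out 1 context or pair gave 6 to 7 called for reactivation, 2 to 3 for flavopiridol, 7 to 8 for JQ1, 4 to 6 for flavopiridol against JQ1, 0 to 1 for flavopiridol by reactivation, 0 for JQ1 by reactivation and for both drugs by cell type, 6 to 8 for unstimulated and 6 to 7 for reactivated against naive cells.

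Of 1249 single-gene values under an alternative, 1091 kept their side of the threshold (89 of these changed sign while not called), 119 lost and 30 gained a call, and 9 reversed. With the spike-in shift, 10 µM flavopiridol read -0.57 for Cd3e, -0.44 for Cd3g and -0.73 for Cd4, Cd247 in flavopiridol against JQ1 read -0.14, JQ1 by reactivation read -0.59 for Lck and -1.04 for Lat, and reactivated against naive cells read 0.072 for Cd247 and 0.57 for Zap70. Cd247 in flavopiridol against JQ1 read -0.57 with median centring. The cause of these changes was not tested. In the simulation of reactivation on 12530 genes, 44% of 2-fold and 82% of 4-fold changes were recovered. For flavopiridol by cell type and by reactivation, on 12432 genes each, these shares were 3% and 47% and 2% and 53%.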

Other observations

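Other genes of the receptor pathway were also compared with the naive level, where 58.5% of all genes were called in unstimulated cells (25% as lower and 33.5% as higher) and 72% in reactivated cells (32.8% as lower and 39.2% as higher). In unstimulated cells with DMSO, 6 of 9 receptor chains and accessory surface proteins on the array were lower and none higher, with Trat1 at -1.89 and Cd27 at -1.52, and in reactivated cells again 6 were lower, with Trat1 at -3.24 and Cd27 at -1.77. Of 8 kinases 5 were lower and 2 higher in unstimulated cells, with Txk at -2.67, Prkcq at -1.29 and Mapk3 at 0.86, and 4 were lower and 1 higher in reactivated cells, with Txk at -4.11, Prkcq at -2.60 and Fyn at 0.79. Of 18 adaptors and effectors 10 were lower and 3 higher in unstimulated cells (Tespa1 at -2.08, Rasgrp1 at -1.27, Bcl10 at 0.60 and Shb at 0.54), and 12 were lower and 4 higher in reactivated cells (Rasgrp1 at -2.78, Shb at 1.25 and Bcl10 at 1.05). Of 16 inhibitors 9 were lower and 2 higher in unstimulated cells (Dgka at -1.48, Sit1 at -1.43, Dok1 at 1.04 and Sla at 0.93), and 10 were lower and 4 higher in reactivated cells (Sit1 at -4.23, Ptpn6 at -3.54, Sla at 3.10 and Ubash3b at 2.28).

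Between the drugs 56.2% of all genes were called (22.4% as higher and 33.8% as lower with flavopiridol). Here 5 surface proteins were higher with 10 µM flavopiridol than with 500 nM JQ1 and 1 was lower, with Trat1 at 3.55, Cd8b1 at 1.44 and Cd28 at -0.80. Of 8 kinases 4 were higher and 2 lower (Mapk3 at 2.77 and Map4k1 at 1.40 among them), of 19 adaptors and effectors 6 were higher and 7 lower (Was at 1.73, Skap1 at 1.07, Shb at -2.97 and Bcl10 at -2.60), and of 17 inhibitors 2 were higher and 4 lower (Dok2 at 1.93, Lax1 at 0.74, Ptpn22 at -2.80 and Ptpn2 at -1.81). The interaction of flavopiridol with reactivation was called for 15.8% of all genes and for 2 surface proteins (Trat1 at 1.26 and Cd28 at 1.08), 4 kinases (Prkcq at 1.39, Mapk3 at 1.33, Tec at -1.31 and Fyn at -1.24), 6 adaptors and effectors (5 positive, led by Fyb at 2.37, and Shb at -0.81) and 6 inhibitors (5 positive, led by Sla2 and Sit1 at 2.80 and 2.78, and Ubash3b at -3.03). That of JQ1 was called for 10.1% of all genes and for Trat1 (1.61) and Cd5 (-0.87), for Txk (1.43), Tec (0.60) and Fyn (-0.58), for 4 adaptors and effectors (Nck2 at 0.90 and Malt1 at -0.95 among them) and for 6 inhibitors, all positive, led by Sla (1.47) and Sit1 (1.43). These JQ1 values are without the spike-in shift, under which the median of all genes for this interaction moved from -0.01 to -1.21. No gene of the 4 lists was called for the interaction of either drug with cell type.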
